A study of Mus musculus with 9 samples.

Results

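DNA copy number was compared between 5 mouse mammary tumours labelled MMTV-Cre transplants and 2 MMTV-Cre tumours of the intact gland, 1 from a nulliparous and 1 from a parous mouse. These 7 tumours were chosen by their tumour model label from the 9 tumours of the series, and the other 2, labelled Ad-CMVcre transplants, are set beside them where they bear on a result. All 9 tumours come from mice with floxed Rb and p53 alleles (Rbf/f;p53f/f), so both groups carry the same floxed alleles. Cre, the recombinase that cuts out floxed DNA, was made in the 7 tumours from the MMTV promoter, whose activity is highest in mammary epithelial cells, and was brought into the Ad-Cre tumours by an adenovirus. Tumour DNA labelled with Cy5 was hybridised with Cy3-labelled tail DNA pooled from mice without tumours, 1 array per tumour. Tumours and pool are both labelled as mixed strain background. The labels call the transplants primary mammary tumours as well, and they give no recipient mouse, recipient strain, donor, passage or age. Each group of intact-gland tumours holds 1 tumour, so parity was not compared.

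Rb and p53 are tumour suppressors that hold back the cell cycle and keep damaged cells from dividing, and tumours without them often carry gained, lost and rearranged chromosomes. Such changes arise in the tumour and commonly span a chromosome or an arm, or form short amplified stretches (amplicons). Inbred mouse strains also differ by inheritance in short stretches that one genome holds and another lacks or holds in fewer copies, often in clusters of related genes. A tumour grown after transplantation can hold cells of the graft and cells of the recipient, and an array of bulk DNA reads both. A log2 ratio from bulk DNA also cannot tell a small change in all cells from a larger change in some of them.

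Values are log2 ratios of tumour over pool, centred on each array's autosomal median, from 914119 autosomal probes with a median spacing of 1782 bp. A stretch of the genome with a steady level (a segment) was called gained at 0.25 or more and lost at -0.25 or less. The median tumour signal lay 14.9 to 17.9 times above local background over the 9 arrays, and the noise of single probes was 0.158 to 0.183 on the log2 scale. Positions are printed as deposited; the arrays' files state neither a build nor genes. The transplants were scanned on other days than the intact-gland tumours, transplants 1 and 2 on scan day 1 and transplants 3, 4 and 5 on scan day 2, so scan day and group cannot be told apart. The Ad-Cre transplants shared scan day 3 with the intact-gland tumours. Tests between the groups treat the 7 tumours as independent and measure the spread between them.

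A run of low probes on chromosome 11, which carries Trp53, the gene of p53, was looked at first. The run of 4 neighbouring probes (69397121 to 69402566) was found by a search of that chromosome for probes low in most tumours. Low signal in most tumours was thus set by the choice. No probe is placed in a gene here, so whether the run is the deletion made by Cre was not tested. The 4 probes were compared with the 20 probes on either side of them. The signal left in the run was 30.8% in the nulliparous and 31.6% in the parous tumour. It was 30.7%, 41.2%, 37.4% and 50.4% in transplants 1, 3, 4 and 5. For MMTV-Cre transplant 2 the value was 97.8%, so the run was not low there. This library, called the library labelled transplant 2 below, stands apart from the other tumours by this measure. Whether its label is right was not tested, and the main results are given with and without it.

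The chromosome-scale part of these genomes did not separate transplants from intact-gland tumours. Altered segments covered 18.15% of the autosomes in the nulliparous tumour and 25.15% in the parous tumour. They covered 5.48%, 21.6%, 19.01%, 16.25% and 2.62% in transplants 1 to 5. Transplants 1 and 5 lay far below the other 5 tumours, while transplants 2 and 3 lay between the intact-gland tumours. The mean was 13% ± 8.45 (SD, n = 5) in transplants and 21.65% ± 4.96 (SD, n = 2) in intact-gland tumours, a difference of -8.65 percentage points (exact two-sided permutation test, p = 0.19, over 21 groupings whose smallest p is 0.0476). Without the library labelled transplant 2 the difference was -10.8 points (exact permutation p = 0.20, smallest 0.0667). In segments of at least 10 Mb the altered share was 9.45% ± 6.69 (SD, n = 5) against 14.9% ± 7.58 (SD, n = 2), with an exact permutation p of 0.43. That difference of -5.46 points was -6.63 without the library labelled transplant 2 (exact permutation p = 0.33) and -0.097 without the parous tumour, so it rested on the latter. At a stricter calling threshold of 0.4 both differences turned, to 3.59 points for the altered share and 2.55 points for these long segments.

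**Figure D1:**
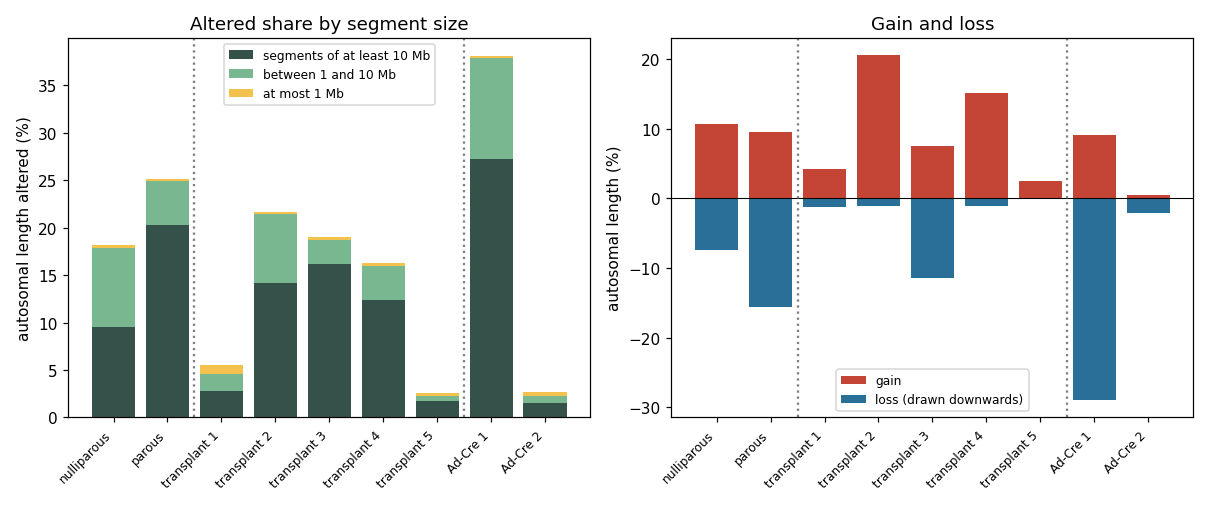
Share of autosomal length altered in each of the 9 tumours (y axes, percent; x axes, tumours; dotted lines part intact-gland, MMTV-Cre transplant and Ad-Cre tumours). Left, bars stacked by segment size; right, gains drawn upwards and losses downwards. Transplants 1 and 5 have 5.48% and 2.62% altered, and losses reach 11.5% in transplant 3 and 15.7% in the parous tumour.

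Gains and losses were spread differently over the tumours. Gained segments covered 10.7% and 9.47% of the autosomes in the nulliparous and parous tumours, and 4.22%, 20.5%, 7.51%, 15.1% and 2.47% in transplants 1 to 5. The transplants thus lay on both sides of the intact-gland tumours in gains. The difference in mean gain was -0.11 points (exact permutation p = 1), and -2.75 without the library labelled transplant 2 (exact permutation p = 0.53). Lost segments covered 7.45% and 15.7% in the intact-gland tumours. In transplants 1, 2, 4 and 5 losses covered 1.26%, 1.11%, 1.12% and 0.152%, and in transplant 3 they covered 11.5%. The mean loss was 3.03% ± 4.75 (SD, n = 5) against 11.6% ± 5.82 (SD, n = 2), and the exact two-sided permutation p was 0.0952. Without the library labelled transplant 2 that p was 0.27.

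Gain of chromosome 3 was the broad change found in most tumours of both groups. Segments of at least 10 Mb gained on chromosome 3 were called in 3 of 5 transplants (2, 3 and 4) and in 2 of 2 intact-gland tumours. Chromosome 3 carries Pik3ca, which encodes a kinase of the growth factor pathway, and the survival gene Mcl1, but no probe is placed in a gene here. The chromosome's median log2 ratio was 0.10 and 0.26 in the nulliparous and parous tumours. It was 0.14, 0.75, 0.33, 0.30 and 0.13 in transplants 1 to 5, so transplant 2 was the highest and the groups overlapped. In transplant 2 the gain ran over most of the chromosome in 6 segments of 0.70 to 0.78. In the intact-gland tumours the called segments of at least 10 Mb covered 54.8 Mb in all, at 0.25 to 0.30. The parous tumour's median lay close to the calling threshold of 0.25, so its called length need not be the full extent of the gain.

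Loss on chromosome 7 was called in both intact-gland tumours and in no MMTV-Cre transplant. It covered 12.95 Mb in the nulliparous tumour at -0.26. In the parous tumour 3 neighbouring segments lay at -0.28 to -0.33. Both Ad-Cre transplants also carried a broad loss on chromosome 7. Below the calling threshold the groups were not parted, because the chromosome's median was -0.16 and -0.28 in the intact-gland tumours and -0.20, -0.07, -0.07, -0.04 and -0.12 in transplants 1 to 5. Transplant 1 lay between the intact-gland tumours.

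Most other broad changes belonged to a single tumour of these 7. The parous tumour had lost 182 Mb of chromosome 1 at -0.27 to -0.37 and 65.4 Mb of chromosome 6. The nulliparous tumour had lost 55.3 Mb of chromosome 9. Transplant 3 had lost 164.7 Mb of chromosome 2 and 76.25 Mb of chromosome 11. Its chromosome 11 loss takes in the position of the low run above. A gained segment of the nulliparous tumour, from 67395698 to 91295054 at 0.31, takes in that position as well. The signal left in the run was thus read against flanks whose level differed between tumours. Transplant 1 had lost 25.35 Mb at the end of chromosome 8 at -0.39. Transplant 4 had gained chromosome 10 over 37.4 Mb, and transplant 2 had gained 35.8 Mb of chromosome 19 at 0.40.

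Chromosomes 5 and 15, the latter the chromosome of Myc, were gained in both groups. Broad gain of chromosome 5 was called in transplants 2 and 5 and in the nulliparous tumour, and that of chromosome 15 in the same 3 tumours. The levels of the chromosome 15 segments were 0.26 to 0.35 in the nulliparous tumour, 0.34 to 0.47 in transplant 2 and 0.25 to 0.26 in transplant 5. Chromosome 8 was gained in the parous tumour, at 0.25 to 0.33, and in transplant 4, at 0.25 to 0.35. Gain on chromosome 4 was called in transplants 1 and 4, and gain on chromosome 11 in transplant 2 and the nulliparous tumour. Chromosomes 13, 16, 17 and 18 had no broad segment in any of the 7 tumours.

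None of the 19 autosomes passed the test between the groups. In all 19 the transplants overlapped the intact-gland tumours, and the smallest adjusted p was 0.72 (exact two-sided permutation test, Benjamini-Hochberg over 19 autosomes), or 0.63 without the library labelled transplant 2. Since no unadjusted p can go below 0.0476, a single autosome could not pass this test after adjustment. With limma, a linear model with a pooled spread, on the same medians the smallest adjusted p was 0.58. The largest differences in means were 0.18 on chromosome 19, 0.17 on chromosome 1, -0.17 on chromosome 12 and 0.15 on chromosome 3. On chromosome 19 this rested on transplant 2 at 0.41, with the other transplants between -0.04 and 0.08. On chromosome 1 the parous tumour was the lowest at -0.32, and on chromosome 12 it was the highest at 0.24.

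**Figure D2:**
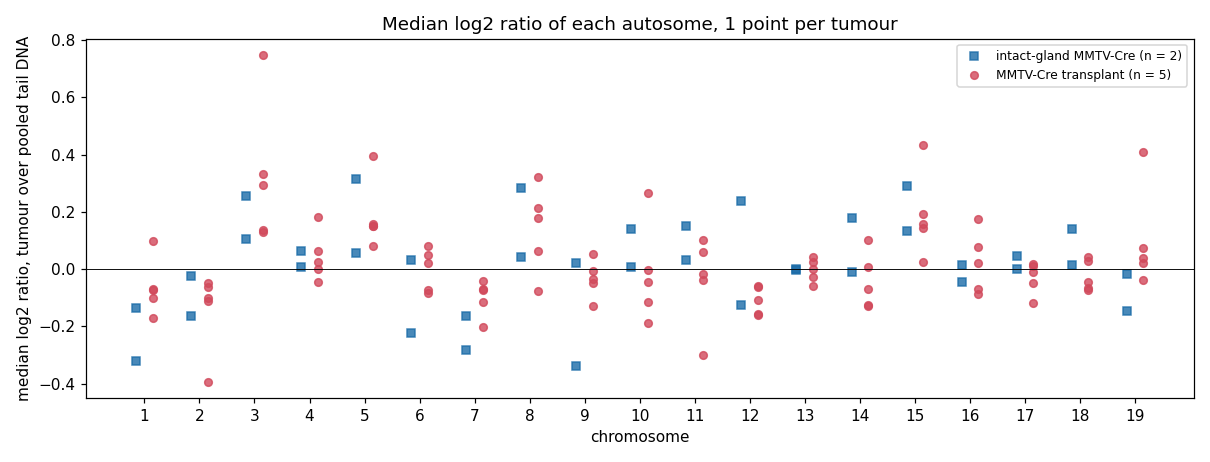
Median log2 ratio of tumour over pool (y axis) for each of the 19 autosomes (x axis), 1 point per tumour, squares for the 2 intact-gland and circles for the 5 transplant tumours. The groups overlap on every chromosome, and the highest point is transplant 2 on chromosome 3 at 0.75.

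Amplicons were present in both groups, mostly at places of their own. High-level events were segments no longer than 10 Mb whose level was 1 or above, or -1 or below, and neighbours within 1 Mb were joined. The fold of a joined event is that of the mean log2 ratio over its high segments alone. The tallest amplicons belonged to the intact-gland tumours. In the parous tumour chromosome 6 was raised 19.9-fold from 17123977 to 21003351, and chromosome 15 carried 3 amplicons of at least 300 kb, raised 8.27-fold (61046355 to 62787015), 3.20-fold (67375633 to 69235886) and 3.98-fold (100530486 to 101301819). In the nulliparous tumour 19 high segments of chromosome 9, joined from 3259475 to 9376740, were raised 18.6-fold on average. Losses were called between them, at -0.38 from 3340963 to 3847749 and at -0.37 from 4481243 to 5237749. Met, which encodes a growth factor receptor, lies on chromosome 6, and Yap1, Birc2 and Birc3, which act in growth and in the block of cell death, lie on chromosome 9.

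The chromosome 9 amplicon had a counterpart in a transplant. Transplant 5 had 3 joined segments from 6484696 to 9192736, raised 10.9-fold on average. They lay within the span of the joined segments of the nulliparous tumour. The chromosome 6 amplicon of the parous tumour had no counterpart among the MMTV-Cre transplants. An event of the same part of chromosome 6, from 17332410 to 18003972 and raised 12.0-fold, was found in Ad-Cre transplant 2.

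Transplant 1 carried 8 amplicons of at least 300 kb on chromosome 8, between 17527034 and 88995950. Their levels were 2.03-fold to 2.72-fold, and 60 of the 125 breakpoints of this tumour lay on that chromosome. Transplant 3 carried 4 joined segments on chromosome 11 from 109197206 to 120749871, raised 2.14-fold on average. Losses were called between them, at -0.32 from 111376808 to 111846697 and at -0.30 from 112039009 to 112190495. No event of at least 300 kb that lacked a locus missing from the pool, as described further on, was found in the library labelled transplant 2. On chromosome 6, near 70028604 to 70656277, high-level events of any size were called in transplants 1 (2.18-fold), 2 (2.38-fold), 4 (2.66-fold) and 5 (2.24-fold) and in both Ad-Cre transplants. A gain was also called there in 1 intact-gland tumour, and the reference signal was 53.8% of the autosomal median. Probe medians over the joined events of transplants 1 and 4 were 0.44 and 0.69. Over the shorter events of transplants 2 and 5 they were 1.35 and 1.13.

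Counted over all sizes, high-level events were more frequent in the transplants. There were 23, 20, 14, 17 and 23 in transplants 1 to 5 and 9 in each intact-gland tumour, so the groups did not overlap. The mean was 19.4 ± 3.91 (SD, n = 5) against 9 (n = 2). The exact two-sided permutation p was 0.0476, which is the smallest that 21 groupings allow, and after adjustment over the 5 tumour-level measures it was 0.24. Without the library labelled transplant 2 the difference was 10.25 in place of 10.4, the counts still did not overlap, and the exact permutation p was 0.13, where the smallest possible is 0.0667. The difference of 10.4 events was 1.7 after normexp background correction and 39 without a filter on dim spots. For events of at least 300 kb the counts were 11, 2, 3, 4 and 4 in transplants against 1 and 4, with an exact permutation p of 0.57.

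The excess sat in events over loci that the reference pool lacks, which are described below. Events holding such a locus numbered 9, 6, 10, 14 and 13 in transplants 1 to 5, 1 in the nulliparous and 0 in the parous tumour. Events without such a locus numbered 14, 14, 4, 3 and 10 in transplants against 8 and 9, and there the groups overlapped. In direction, gains made up 21, 9, 12, 15 and 21 of the events of transplants 1 to 5, against 3 of 9 and 5 of 9 in the nulliparous and parous tumours. The library labelled transplant 2 had 11 losses, where each of the other transplants had 2.

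**Figure D3:**
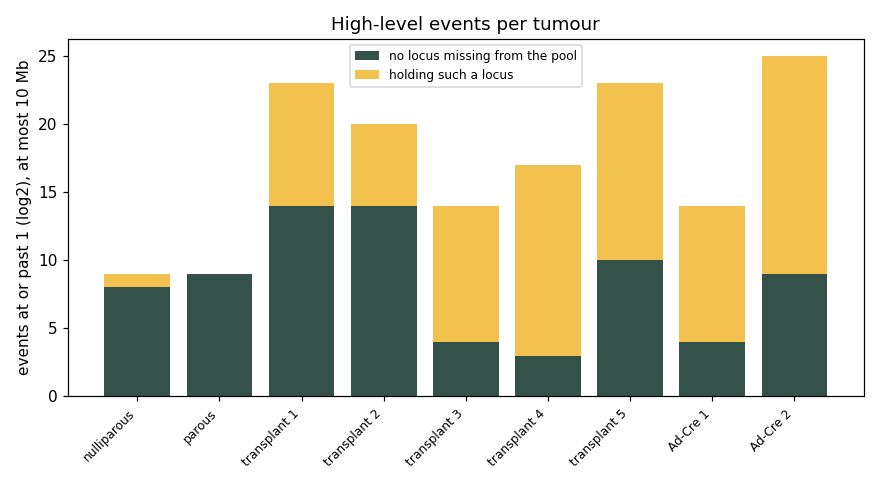
Number of high-level events (y axis) in each of the 9 tumours (x axis), stacked by whether the event holds a locus missing from the reference pool. Events without such a locus number 14, 14, 4, 3 and 10 in MMTV-Cre transplants 1 to 5 and 8 and 9 in the intact-gland tumours.

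Breakpoints, steps of at least 0.2 between neighbouring segments, numbered 125, 69, 78, 99 and 90 in transplants 1 to 5 and 72 and 53 in the nulliparous and parous tumours. The mean was 92.2 ± 21.6 (SD, n = 5) against 62.5 ± 13.4 (SD, n = 2), with an exact two-sided permutation p of 0.19, and without the library labelled transplant 2 they differed by 35.5 (exact permutation p = 0.13). With altered segments of at most 1 Mb left out the order turned, with 28, 8, 16, 29 and 6 breakpoints in transplants and 21 and 28 in intact-gland tumours (exact permutation p = 0.48). Altered segments of at most 1 Mb numbered 67, 34, 40, 40 and 51 in transplants and 38 and 14 in intact-gland tumours (exact permutation p = 0.14). Without the library labelled transplant 2 that difference was 23.5 (exact permutation p = 0.13). Of these, 60, 21, 31, 33 and 44 were gains in transplants, against 24 and 8. After normexp background correction the difference in short segments was 0 and that in breakpoints -13.1, and with a lower segmentation penalty breakpoints differed by -2.4.

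Across the autosomes in windows of 100 kb, 1 of 23354 windows was higher in transplants after adjustment (limma, Benjamini-Hochberg, adjusted p = 0.0353), which is 0.00428% of windows, and 0 were lower. At an unadjusted limma p under 0.05 there were 601 higher (2.57%) and 602 lower (2.58%) windows. The window that passed lay on chromosome 14 from 18200001 to 18300000. Its log2 ratio was -1.02 and -1.04 in the nulliparous and parous tumours. In transplants 1 to 5 it was -0.11, -0.26, -0.20, -0.21 and -0.08, so both intact-gland tumours lay below every transplant in the mean over the window's 14 probes. That mean rested on few probes, with 3 of the 14 at -1 or below in each intact-gland tumour and also 3 in transplant 2. The medians over the 14 probes were -0.18 and -0.25 in the intact-gland tumours and -0.05, 0.04, -0.26, -0.20 and -0.17 in transplants 1 to 5, and these overlapped. The difference in means was 0.86 ± 0.08 (SE), and without the library labelled transplant 2 it was 0.88 (limma adjusted p = 0.00255). Both Ad-Cre transplants, at -0.40 and 0.06, also lay above both intact-gland tumours. The count was 0 after normexp correction, with a stricter filter on dim spots, or without transplant 1, 3, 4 or 5. It was 28 (0.12%), all higher, without a filter on dim spots, and 5 (0.0214%) when all 7 transplants entered. Without the nulliparous tumour it was 84, of which 83 were lower, 39 on chromosome 6 and 43 on chromosome 15 where the parous tumour has its amplicons, and without the parous tumour it was 20, of which 19 were lower and lay on chromosome 9.

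Windows whose groups did not overlap made up 6.59% (higher in transplants) and 5.01% (lower) of all windows. Of the 28 windows named here, inside and outside short loci, 21 also did not overlap by the medians over their probes, a description added after the values were seen. The windows were chosen by the means of these same probes, so this count does not test them. The share by medians over all windows is not given. On chromosome 6 from 130200001 to 130300000 the nulliparous and parous tumours had 0.10 and -0.20, and transplants 1 to 5 had 0.60, 1.03, 0.65, 0.50 and 0.76, a difference of 0.76 (limma adjusted p = 0.79). Chromosome 3 from 15500001 to 15600000 gave -0.03 and 0.28 in the intact-gland tumours and 0.57 to 0.92 in transplants, though its probe medians overlapped. The window of chromosome 4 from 145600001 to 145700000 lay at -0.93 and -0.86 in the intact-gland tumours and at -0.72 in transplant 2, and at 0.18 to 0.74 in the other transplants, a difference of 1.08 (limma adjusted p = 0.79). Without the library labelled transplant 2 that difference was 1.30 (limma adjusted p = 0.00881). The other windows chosen by the same rule on the higher side lay on chromosomes 1, 3, 6 and 10, with differences of 0.49 to 0.85. The largest of them, on chromosome 10 from 100600001, had a difference of -0.05 by probe medians.

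On the lower side the 8 windows named lay on chromosomes 4, 7, 11, 12 and 14, with differences of -0.35 to -0.61, and 3 of them were on chromosome 12, where the parous tumour was raised. The chromosome 12 window from 5200001 to 5300000 was 0.43 in the parous tumour, 0.05 in the nulliparous tumour and -0.26 to -0.15 in transplants. On chromosome 11 from 64200001 both intact-gland tumours were apart from the transplants, at 0.29 and 0.20 against -0.40 to 0.07. Inside short loci the largest higher differences were 2.09 on chromosome 6 from 41000001, 2.01 on chromosome 4 from 112800001 and 1.25 on chromosome 5 from 105100001, and each of these windows held a locus missing from the pool, as described below. Among lower windows inside short loci the largest difference, -1.80, lay on chromosome 9 from 9300001 to 9400000, where the nulliparous amplicon gave 3.51 and the other 6 tumours lay between -0.07 and 0.08. None of these windows passed adjustment in the fit of 7 tumours.

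When the library labelled transplant 2 was left out, the same test gave 29 windows higher in the remaining 4 transplants, or 0.124% of windows, and 0 lower (limma, adjusted p under 0.05). With no filter on dim spots either, there were 111 (0.475%), of which 45 held a locus missing from the pool. The differences of the 29 ran from 0.67 to 2.98. They lay on 10 chromosomes, with 17 on chromosome 4, and 23 lay on short altered loci. Of the 17 on chromosome 4, 15 lay on 1 short locus, from 111701962 to 113608126, so the 29 windows are not 29 separate loci. In 22 the window held a locus missing from the pool, and in 24 the reference signal was under 50% of its autosomal median. In 23 of the 29 the library labelled transplant 2 lay within 0.5 of the mean of the intact-gland tumours. The windows were called with that library left out, and the share over all windows is not given. Its likeness to either group cannot be read from this count. In all 29 both Ad-Cre transplants lay above both intact-gland tumours, and 28 of the 29 were also called higher in Ad-Cre transplants than in intact-gland tumours on the shared scan day, where 0.158% of windows were called higher and 0.531% lower. That comparison uses the same intact-gland tumours, and the share of all windows with both Ad-Cre transplants above both of them is not given.

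Short altered loci (segments of at most 1 Mb, joined where they overlapped between tumours) numbered 149 over the 7 tumours. In 111 the change was called in a single tumour, 83 in a transplant and 28 in an intact-gland tumour. In 10 it was called in both groups. Change in 4 or 5 transplants and in no intact-gland tumour was found at 12 loci, and change in both intact-gland tumours and no transplant at 2. Since the transplants number 5 and the intact-gland tumours 2, these counts are not set against each other.

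The 12 loci shared by transplants were mostly gains over places where the pool had little signal. At 11 of the 12 every call was a gain, 10 held a locus missing from the pool, and at 9 the reference signal was under 50% of the autosomal median. In both Ad-Cre transplants 10 of the 12 were also called. Over all 149 short loci 22 held a locus missing from the pool, and 19 of the 38 called in 2 or more tumours did. Shares over all short loci are not given for the other counts. The longest when joined over tumours, on chromosome 4 from 111701962 to 113608126, lay at 0.00 and 0.08 in the nulliparous and parous tumours, at 1.47, 1.32, 1.40 and 1.78 in transplants 1, 3, 4 and 5, and at -0.17 in transplant 2. Chromosome 11 from 70983627 to 71112653 had 0.24 and 0.16 in the intact-gland tumours, 2.54, 2.09, 2.47 and 3.04 in transplants 1, 3, 4 and 5, and -0.14 in transplant 2. Chromosome 6 from 40999050 to 41117839 was gained in all 5 transplants, at 1.73, 2.74, 1.57, 1.78 and 2.11, against 0.11 and -0.04. In the first of these loci transplant 2 sat with the intact-gland tumours, and in the last it was the highest tumour of the 7. These values are means over probes. By medians over probes, 6 of 14 loci, the 12 here and the 2 described next, did not overlap between groups. Chromosome 17 from 38420164 to 38521704, gained in all 5 transplants, differed by 0.98 in means and 0.08 in medians. For chromosome 12 from 116253761 to 117184534 these differences were 0.10 and -0.36. The loci were chosen by their calls in these tumours, so the count does not test them.

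Both loci changed in the intact-gland tumours and in no transplant were losses. Chromosome 6 from 101271756 to 101288682 lay at -0.92 and -1.49 in the nulliparous and parous tumours and at 0.74, -0.03, 0.40, 0.52 and 0.53 in transplants 1 to 5. Chromosome 14 from 10896884 to 10925695 lay at -0.89 and -0.97 in the intact-gland tumours and at -0.12, -0.34, -0.31, -0.29 and -0.19 in transplants. By medians over the probes, the chromosome 6 locus had -0.09 and -0.66 against -0.06 to 0.32, without overlap. The chromosome 14 locus had 0.15 and -0.04 against -0.21 to 0.02, so there the groups overlapped, and 4 of its 15 probes were at -1 or below in each intact-gland tumour and in transplant 2. The reference signal there was 58.5% and 74.0% of the autosomal median.

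A place on chromosome 11, chosen after its values were seen, carried opposite changes in different tumours. A loss was called in the parous tumour from 116603960 to 116620323 at -2.96, and a gain in transplant 2 from 116596801 to 116631530 at 1.96. Gains were also called there in transplants 1 and 5, and the reference signal was 35.7% of the autosomal median. The largest short loci were mostly of single tumours. Of the 6 largest, 3 lay on chromosome 8 in transplant 1, 1 on chromosome 5 in the nulliparous tumour, 1 on chromosome 9 in the nulliparous tumour and transplant 5, and 1 was the chromosome 4 locus above.

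Because so many shared loci were dim in the reference channel, the pool's own signal was used to find stretches it lacks, without use of any tumour value. A locus was called missing from the pool where at least 4 of 5 neighbouring probes had a reference signal under 15% of the autosomal median (0.15 as a fraction), taking the median of the 9 arrays. This gave 56 loci of 645 probes on 16 chromosomes, 4436 to 531119 bp long with a median of 15473 bp. The median reference signal over these loci was 1.41% to 2.37% on the 9 arrays. At such loci a ratio has almost nothing in its denominator, so the tumour channel itself, in percent of its autosomal median, is given here.

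The tumour-channel signal at the 56 loci was near that of the pool in the intact-gland tumours and far above it in the transplants. The median over loci was 2.52% in the nulliparous and 2.40% in the parous tumour. It was 28.5%, 7.40%, 27.6%, 27.7% and 41.9% in transplants 1 to 5. All 5 transplants lay above both intact-gland tumours, and transplant 2 was the lowest of them. The mean of these medians was 26.6% ± 12.35 (SD, n = 5) against 2.46% ± 0.088 (SD, n = 2), and without the library labelled transplant 2 it was 31.4% ± 7.01 (SD, n = 4). The definition of these loci was set after the data had been seen, so the difference is a description with no test.

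Locus by locus, the transplants did not overlap the intact-gland tumours at 24 of 56 loci, and without transplant 2 at 52 of 56. Over 182687 runs of 5 probes elsewhere on the autosomes the corresponding shares were 5.7% and 8.69%. Neighbouring loci were counted apart, among them those of chromosome 4 between 111746423 and 113584342. Each of these chromosome 4 loci overlapped between groups with transplant 2 and did not without it. Counts over loci, here and below, are therefore not counts of separate stretches. Among the 71 windows of 100 kb that held such a locus, 25 (35.2%) had all transplants above both intact-gland tumours and 0 had all below. Over all windows the shares were 6.59% and 5.01%, and 8.5% were higher without transplant 2. Both Ad-Cre transplants lay above both intact-gland tumours at 53 of 56 loci, with medians of 31.2% and 52.95%. The share over runs elsewhere is not given for the Ad-Cre transplants, so this count has no background beside it.

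**Figure D4:**
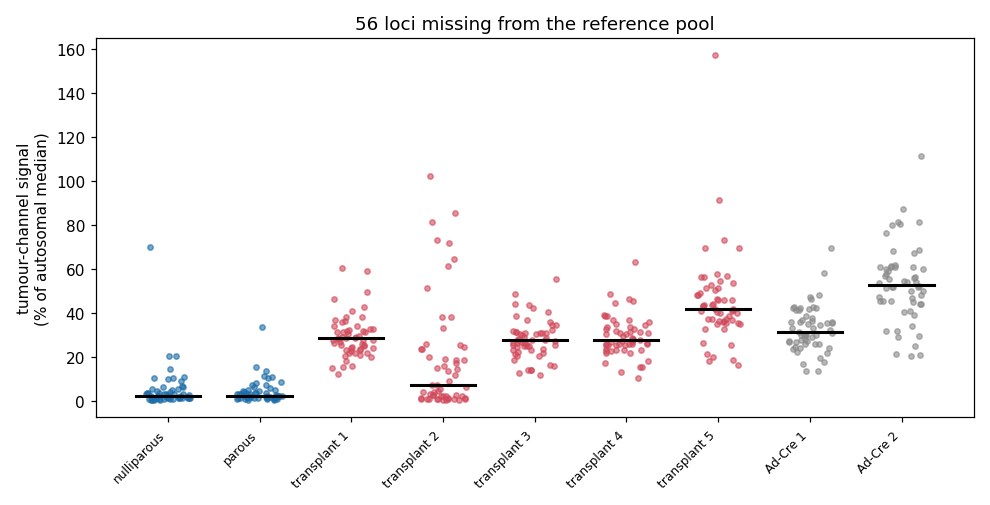
Tumour-channel signal (y axis, percent of the autosomal median) at each of the 56 loci missing from the reference pool in each of the 9 tumours (x axis). Each point is a locus and each bar the median, which is 2.52% and 2.40% in the intact-gland tumours and 28.5%, 7.40%, 27.6%, 27.7% and 41.9% in transplants 1 to 5, whose second tumour spreads from 0.675% to 102.2%.

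The longest of these loci show the pattern in single values. On chromosome 4 from 111746423 to 112273342, over 134 probes, the level was 1.79% and 1.88% in the nulliparous and parous tumours. In transplants 1 to 5 it was 26.1%, 1.18%, 25.5%, 26.7% and 40.6%. Transplants 1, 3 and 4 lay between 25.5% and 26.7% there, transplant 5 was higher, and transplant 2 was as low as the pool, at 1.34%. The neighbouring locus from 112720821 to 113251939 gave 2.23% and 2.19% in the intact-gland tumours and 25.6%, 1.56%, 24.4%, 26.2% and 36.4% in transplants.

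On other chromosomes transplant 2 behaved differently from locus to locus. On chromosome 6 from 41018389 to 41114264 the intact-gland tumours had 1.21% and 1.47% and transplants 1 to 5 had 29.1%, 73.3%, 28.6%, 29.4% and 41.3%, so transplant 2 was the highest. Chromosome 10 from 100599926 to 100665997 gave 64.8% in transplant 2 and 33.9% to 52.7% in the other transplants, against 1.79% and 1.16%. On chromosome 12 from 115304961 to 115348404 it had 19.02%, below the 30.8% to 43.6% of the others. Over all 56 loci transplant 2 lay under 10% at 30, between 10% and 30% at 15 and at 30% or more at 11, of which 8 were at 50% or more. None of transplants 1, 3, 4 and 5 had a locus under 10%.

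Transplants 1, 3 and 4 had nearly the same level at the typical locus, with a median SD between them of 1.11 points. On chromosome 16 from 80946443 to 80970824 they differed more, at 60.4%, 30.8% and 34.8%. Transplant 5 was the highest of transplants 1, 3, 4 and 5 at 53 of 56 loci, and Ad-Cre transplant 2 exceeded Ad-Cre transplant 1 at 55 of 56. The exceptions among the intact-gland tumours were few. The nulliparous tumour had its highest level, 70.1%, at a locus on chromosome 7, and the parous tumour's highest was 33.75%, while 49 and 50 of their 56 loci lay under 10%.

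Transplant 5 was the highest of transplants 1, 3, 4 and 5 both at the missing loci and in the signal left in the chromosome 11 run. Transplants 1, 3 and 4 had 30.7%, 41.2% and 37.4% left in the run and 28.5%, 27.6% and 27.7% at the missing loci. Transplant 5 had 50.4% and 41.9%, and Ad-Cre transplant 2 had 59.8% and 52.95%, the highest of these tumours in both. The altered share was lowest in transplant 5, at 2.62%, and Ad-Cre transplant 2, at 2.71%. What part a mixture of graft and recipient DNA has in these values was not tested.

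**Figure D5:**
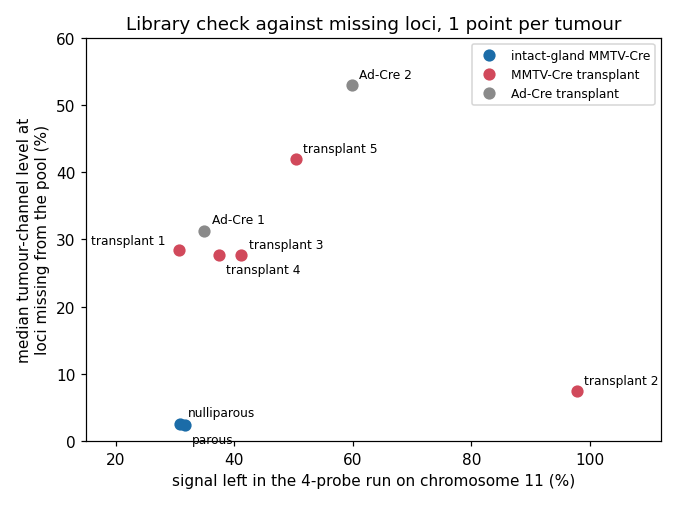
Median tumour-channel level at the 56 loci missing from the pool (y axis, percent) against the signal left in the 4-probe run on chromosome 11 (x axis, percent), 1 point per tumour for all 9 tumours. Transplant 5 and Ad-Cre transplant 2 are high on both axes, at 50.4% and 59.8% left in the run, and the library labelled transplant 2 stands apart at 97.8%.

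Likeness between tumours depended on which windows were read. Outside short loci, pairs of transplants correlated over windows with r of 0.30 to 0.61 (median 0.51, 10 pairs), pairs of a transplant and an intact-gland tumour with 0.13 to 0.66 (median 0.34, 10 pairs), and the intact-gland pair with 0.26. These ranges overlapped. In the 71 windows holding a locus missing from the pool, pairs among transplants 1, 3, 4 and 5 had r of 0.963 to 0.967, and their pairs with intact-gland tumours 0.30 to 0.39. The library labelled transplant 2 had r of 0.02 to 0.11 with the other transplants there, 0.39 with the nulliparous and 0.06 with the parous tumour. Every array used the same pool and the same dyes for tumour and pool, so the correlations are given as a description over windows.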

How the data were processed

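Genomic DNA of each tumour (Cy5) was hybridised with pooled tail DNA (Cy3) on an Agilent array, without dye swaps. Per the file headers, Feature Extraction 10.5.1.1 made the deposited intensity values, background-subtracted and dye-normalised. The authors' deposited log10 ratios, also in the series table, were an alternative. The genome build is not given in the sources used here.

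Log2 ratios of the processed signals were computed for 914119 autosomal probes after 1597 to 2115 dim or outlier spots per array were left out, and centred on the autosomal median. Bins of 5 probes were segmented by penalised least squares (PELT, penalty factor 10). Windows of 100 kb with at least 3 probes went into limma (version 3.58.1, R 4.3.3). Other measures had exact two-sided permutation tests. On simulated windows limma recovered 34% of shifts of 0.5 and 89% of shifts of 1 for 5 transplants against 2 intact-gland tumours, with 4 false calls among 23354 windows. The simulated noise was independent between windows and each shift was put into all transplants. Real windows of a broad segment move together and many events belong to a single tumour, so these rates do not carry over to the real comparison. The number of arrays limits precision.

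The tumours, lists and named-window rule were chosen with earlier results of these data known. Windows named were those past the threshold and, among windows without overlap, the largest differences (8 each way outside and 6 each way inside short loci, at most 1 per 10 Mb). Loci missing from the pool were defined after their values had been seen. Gene names are given by chromosome alone (GRCm38.p6 table). Alternatives covered background correction, centring, dim spots, segmentation, thresholds and left-out tumours.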

Additional observations from a re-analysis of the deposited data

Results flagged for a closer look

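In all, 54 sets of values of the 5 transplants were examined for a tumour far from the rest. Far meant a gap to its nearest neighbour above 0.710 of the range, and 6 sets had such a tumour. The sets included the 28 named windows, which were chosen by these same values, and all came from the same 5 tumours. The number found is therefore not set against chance. The median of chromosome 2 was -0.39 in transplant 3, with the other transplants between -0.11 and -0.05. The library labelled transplant 2 was high on chromosome 5, at 0.40 against 0.08 to 0.16, and on chromosome 19, at 0.41 against -0.04 to 0.08. It was low in the chromosome 4 window from 112800001, at 0.21 against 2.37 to 3.23. Transplant 3 was low in the chromosome 4 window from 143300001, at -0.61 against -0.01 to 0.09, and transplant 4 in the chromosome 4 window from 3300001, at -0.48 against -0.02 to 0.15. The difference of 0.86 between transplants and intact-gland tumours in the chromosome 14 window from 18200001 passed the test between groups (limma, adjusted p = 0.0353).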

How the results depend on the processing

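The count of windows differing between the groups, 1 in the reported setting, was 0 with normexp correction, with a stricter filter on dim spots, in windows of 1 Mb or 10 Mb and in a fit of all 9 tumours (limma; unadjusted p under 0.05 in 854, 1194, 89, 10 and 1080 windows). It was 28 without a filter on dim spots, all higher in transplants (0.12% of windows), and 111 (0.475%) when the library labelled transplant 2 was left out as well. Ad-Cre transplants against the intact-gland tumours on their shared scan day gave 161 windows, of which 124 (0.531%) were lower (36 on chromosome 6, 41 on 9 and 43 on 15), and all 7 transplants together gave 5 (0.0214%). Leaving out 1 tumour gave 0 to 84 windows, namely 0 without transplant 1, 3, 4 or 5, 29 without transplant 2, 84 without the nulliparous tumour (83 lower, 39 on chromosome 6 and 43 on chromosome 15) and 20 without the parous tumour (19 lower on chromosome 9). With normexp the difference in short segments was 0 and that in breakpoints -13.1. Breakpoints also turned to -2.4 at penalty factor 5 and -7.1 without short segments. At a threshold of 0.4 the difference in altered share turned to 3.59 points and that in broad share to 2.55. The chromosome 12 window from 18200001 turned to 0.69 without a filter on dim spots. The cause of these changes was not tested. The difference in broad share was -0.097 points without the parous tumour. The level at loci missing from the pool differed by 24.2 points, and by 20.35 to 29.0 under the alternatives and left-out tumours. Under these alternatives no segment measure had an adjusted p past the threshold, and none could pass. Each measure's p was replaced alone, the others kept their reported values, and no exact permutation p goes below 0.0476. No paired analysis was possible because the numbers of the tumours come from deposit order and each intact-gland group holds 1 tumour. Signals near background at dim loci limit their ratios.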
